A study of Mus musculus with 12 samples.

Results

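Txnip and its 4 measured relatives Arrdc1, Arrdc2, Arrdc3 and Arrdc4 are the alpha-arrestin genes described here, in the hypothalamus of obese mice given celastrol or withaferin A. The genes were taken by family membership, 1 probe set each, and make up 5 of the 14953 genes tested. The family was selected on its signal differences between the groups, since Txnip was higher with celastrol and not with withaferin A. Those differences are therefore given as a description with no test. All 5 genes had exactly 1 probe set with a single gene symbol, and all 5 lay above the lower limit on signal.

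The mice were male C57BL/6J animals, 23 weeks old, whose food held 45% fat during the last 20 weeks, starting when they were 3 weeks old. All groups carried the same diet and the same vehicle: every mouse received intraperitoneal DMSO for 4 days first. For the next 4 days the withaferin A group received 2 mg/kg withaferin A daily, the celastrol group received 100 µg/kg celastrol daily, and the DMSO group stayed on DMSO. Each group held 4 arrays, labelled as biological replicates, and whole hypothalamus was measured, so fewer cells of a type and less RNA per cell cannot be told apart. The compounds were given at different doses, so each difference between them is one between these 2 regimens.

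Alpha-arrestins are cytoplasmic adaptor proteins with an arrestin fold. Most carry PPxY motifs that bind the WW domains of NEDD4-family ubiquitin ligases, and so bring those ligases to membrane proteins that are then internalised or sorted. TXNIP, the founding mammalian member, also binds reduced thioredoxin and restrains glucose uptake by promoting endocytosis of the glucose transporter GLUT1. Txnip transcription is induced by glucose through the factors MondoA and ChREBP with their partner Mlx, and Arrdc4 is a target of the same factors. In mice, Txnip in hypothalamic neurons has been linked to energy balance and leptin action. ARRDC3 acts in the trafficking of beta-adrenergic receptors, and loss of Arrdc3 in mice alters body weight. ARRDC1 recruits TSG101 to the plasma membrane and drives the release of microvesicles. ARRDC2 has been studied less.

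The promoters of Txnip, Arrdc2 and Arrdc4 are shown because Txnip and Arrdc2 varied together between animals, while Arrdc4, like Txnip a known Mondo target, stayed near its DMSO level. The 250 bases before the RefSeq start of each gene (mouse build GRCm38.p6) are written 5′ to 3′ on the strand of the gene. The windows are chr3:96557707-96557956 on the plus strand for Txnip, chr8:70839721-70839970 on the minus strand for Arrdc2 and chr7:68749239-68749488 on the minus strand for Arrdc4. Capitals mark matches to the motifs that are described after the sequences.
Txnip: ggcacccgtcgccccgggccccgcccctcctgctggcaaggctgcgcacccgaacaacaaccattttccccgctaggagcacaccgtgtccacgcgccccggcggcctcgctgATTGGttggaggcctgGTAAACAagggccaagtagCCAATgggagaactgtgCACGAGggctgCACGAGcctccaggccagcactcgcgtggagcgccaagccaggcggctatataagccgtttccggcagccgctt
Arrdc2: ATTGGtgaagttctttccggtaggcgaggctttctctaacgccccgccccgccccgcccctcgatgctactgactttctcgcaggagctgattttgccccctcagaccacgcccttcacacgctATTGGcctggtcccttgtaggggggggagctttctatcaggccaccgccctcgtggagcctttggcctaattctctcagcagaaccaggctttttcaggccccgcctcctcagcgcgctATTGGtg
Arrdc4: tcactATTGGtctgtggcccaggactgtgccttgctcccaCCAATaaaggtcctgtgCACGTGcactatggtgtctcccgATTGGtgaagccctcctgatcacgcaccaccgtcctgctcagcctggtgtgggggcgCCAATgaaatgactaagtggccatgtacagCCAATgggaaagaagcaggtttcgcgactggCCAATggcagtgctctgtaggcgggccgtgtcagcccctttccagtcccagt

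In the Txnip window the capitals mark a pair of boxes at -85 to -69 that match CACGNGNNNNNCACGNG, an arrangement to which MondoA and ChREBP with Mlx are known to bind. This pattern, searched on both strands, occurred in 0.0457% of the 32851 RefSeq promoter windows of the same length (15 windows), and in none of the windows of Arrdc1, Arrdc2, Arrdc3 or Arrdc4. Capitals at -121 to -115 mark GTAAACA, the letters bound by forkhead factors such as FOXO1. GTAAACA was present in 3.17% of windows and, among the 5 genes, in Txnip alone. In Arrdc4 the capitals at -193 to -188 mark the E-box CACGTG, which was present in 6.02% of windows and does not overlap the other marks. The other capitals are CCAAT boxes, read as CCAAT or ATTGG, with 2 in Txnip, 3 in Arrdc2 and 6 in Arrdc4. CCAAT was found in 33.8% of windows, so its presence is common. The glucocorticoid receptor element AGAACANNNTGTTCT (0.00913% of windows) and its 6-letter arm AGAACA (16.1% of windows) had no match in the window of any of the 5 genes. A missing match covers only these letters in this stretch.

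Txnip was higher after celastrol. With withaferin A the 4 arrays gave a log2 signal of 8.81, 8.76, 8.91 and 8.53, with celastrol 9.42, 9.50, 9.42 and 9.45, and with DMSO 8.48, 8.52, 8.82 and 8.73. All 4 celastrol arrays lay above every other array, while the withaferin A and DMSO arrays overlapped. Celastrol minus DMSO was 0.81 ± 0.09 on the log2 scale (SE from the fit, 4 arrays in each group), or 1.76-fold, with a 95% interval from 0.62 to 1.003. By size of the difference Txnip stood at place 28 of 14953 genes in that comparison. Withaferin A and DMSO differed by 0.12 ± 0.09, with an interval from -0.07 to 0.31. With withaferin A the Txnip signal was lower than with celastrol by a log2 difference of -0.70 ± 0.09, or 0.617-fold, with an interval from -0.89 to -0.51. Ordered by mean, Txnip ran from celastrol through withaferin A to DMSO, and the withaferin A and DMSO means were within their spread. The celastrol arrays were also close to each other, with an SD of 0.039, against 0.16 with withaferin A and 0.17 with DMSO.

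Arrdc2 was higher after both compounds. Its log2 signal was 7.91, 7.54, 7.97 and 7.48 with withaferin A, 7.91, 8.04, 7.92 and 8.05 with celastrol, and 7.15, 7.05, 7.43 and 7.48 with DMSO. Withaferin A replicates 1 and 3 reached the celastrol values, while withaferin A replicates 2 and 4 lay near the top of the DMSO values, at 7.54 and 7.48. Celastrol minus DMSO was 0.70 ± 0.12, or 1.63-fold, with an interval from 0.45 to 0.96. Withaferin A minus DMSO was 0.45 ± 0.12, or 1.36-fold, with an interval from 0.19 to 0.70. The withaferin A and DMSO arrays did not overlap, but only barely, since the lowest withaferin A array had 7.482 and the highest DMSO array 7.480. Withaferin A minus celastrol was -0.26 ± 0.12, with an interval from -0.51 to 0.00026, and those groups overlapped. The order of means was celastrol, withaferin A, DMSO.

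Arrdc3 followed Txnip on a smaller scale. Its log2 signal was 9.51, 9.49, 9.53 and 9.22 with withaferin A, 9.74, 9.68, 9.72 and 9.74 with celastrol, and 9.28, 9.47, 9.43 and 9.55 with DMSO. The 4 celastrol arrays again lay above all others, and withaferin A and DMSO overlapped. Celastrol minus DMSO was 0.29 ± 0.07, or 1.22-fold, with an interval from 0.13 to 0.45. Withaferin A minus DMSO was 0.01 ± 0.07, and withaferin A minus celastrol was -0.28 ± 0.07. Withaferin A replicate 4, at 9.22, stood well below the other 3 arrays of its group.

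Arrdc1 and Arrdc4 had celastrol and withaferin A means near their DMSO means. For Arrdc1, celastrol replicates 2, 3 and 4 lay below all DMSO arrays, at 7.75, 7.80 and 7.86, and replicate 1 above them, at 8.03. Arrdc1 ran from 7.80 to 8.04 with withaferin A, from 7.75 to 8.03 with celastrol and from 7.92 to 7.99 with DMSO. Arrdc4, the other Mondo target of the family, ran from 7.001 to 7.24 with withaferin A, from 7.07 to 7.24 with celastrol and from 7.002 to 7.15 with DMSO. Celastrol minus DMSO was -0.09 ± 0.07 for Arrdc1, with an interval from -0.23 to 0.05, and 0.03 ± 0.06 for Arrdc4, with an interval from -0.10 to 0.17. For withaferin A minus DMSO the differences were -0.02 ± 0.07 and -0.01 ± 0.06, and for withaferin A minus celastrol 0.07 ± 0.07 and -0.05 ± 0.06. Groups overlapped for both genes in all 3 comparisons.

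**Figure D1:**
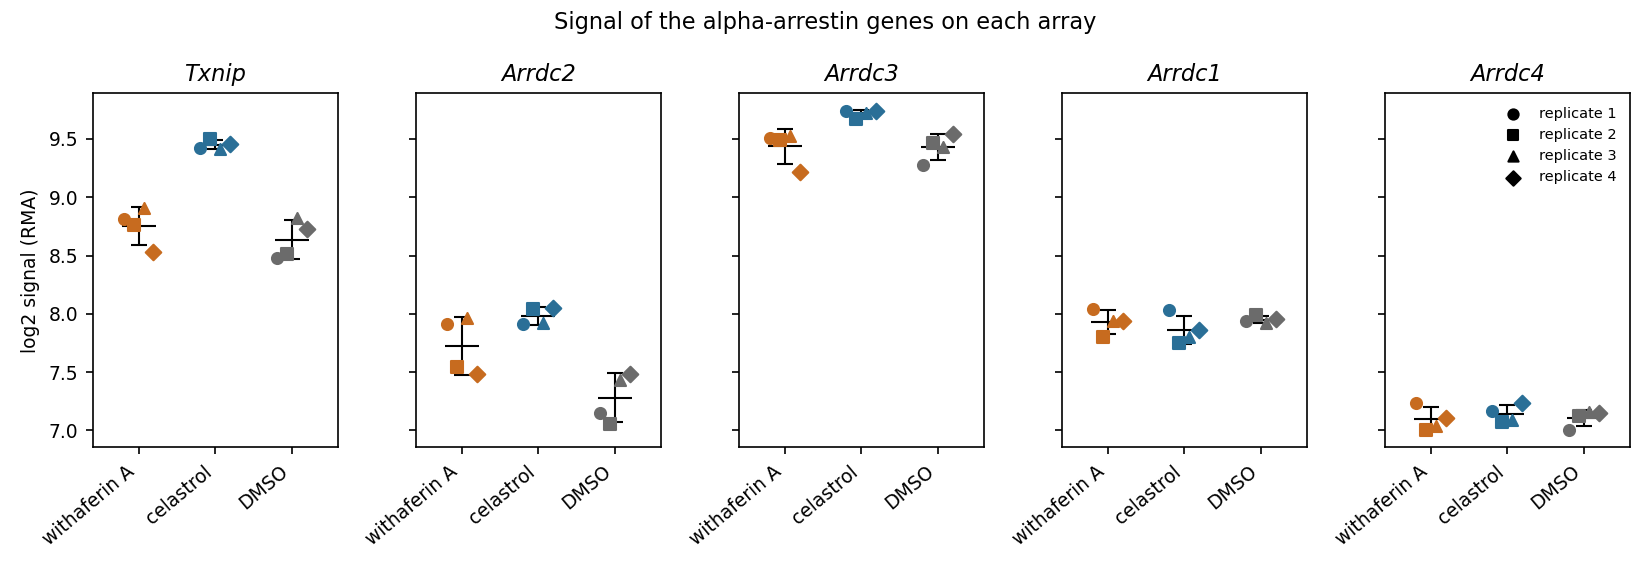
RMA log2 signal (vertical axis) of each alpha-arrestin gene on the 12 arrays, by group (horizontal axis). Marker shapes give the replicate number, the long dash is the group mean and the bars are ± 1 SD (n = 4). The celastrol arrays of Txnip lie between 9.42 and 9.50, above all others, while Arrdc2 is also higher with withaferin A than with DMSO.

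Across the family, 3 of 5 genes (Txnip, Arrdc2 and Arrdc3) had celastrol arrays above every DMSO array, where 2.71% of all tested genes did. With withaferin A, 1 of 5 (Arrdc2) lay above every DMSO array, against 2.91% of genes. Below every celastrol array, withaferin A had 2 of 5 (Txnip and Arrdc3), against 5.35% of genes. The choice of the family used these contrasts, so the shares describe it and are no evidence for it. The comparisons with DMSO share the same 4 DMSO arrays.

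**Figure D2:**
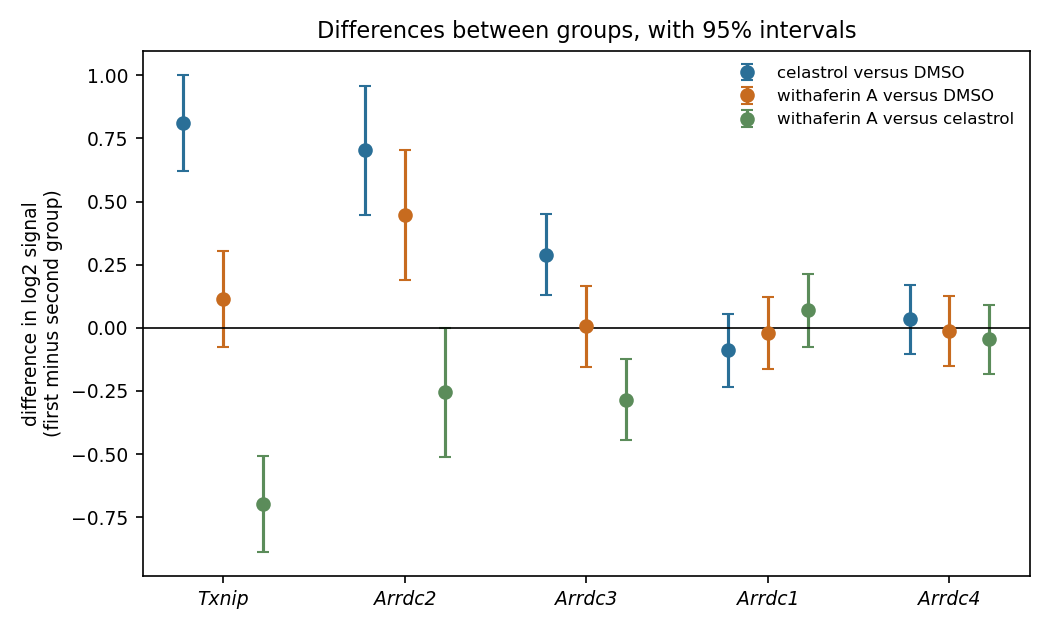
Difference in log2 signal (vertical axis) between groups for each alpha-arrestin gene (horizontal axis), with 95% intervals from the fit to all 12 arrays. The celastrol minus DMSO difference is 0.81 for Txnip, 0.70 for Arrdc2, 0.29 for Arrdc3, -0.09 for Arrdc1 and 0.03 for Arrdc4. The intervals are not adjusted for the choice of the family and serve as no test.

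The choice of genes used differences between group means, but not how animals of one group varied around their own mean. That variation was used to ask whether Txnip and each Arrdc gene went up and down together. Each array was expressed as its deviation from its group mean. Txnip and Arrdc2 deviations had a Pearson r of 0.865 over the 12 arrays (exact two-sided permutation within groups, p = 0.00572, adjusted p = 0.0229 over 4 relations). Spearman's rho was 0.853 (exact permutation p = 0.00984, adjusted p = 0.0394). Without the 2 arrays farthest from the median of Txnip, withaferin A replicate 4 and DMSO replicate 3, r was 0.858 (exact permutation p = 0.0116). For Arrdc3, r was 0.724 (exact permutation p = 0.0749, adjusted p = 0.1499) and rho was 0.608 (exact permutation p = 0.0868, adjusted p = 0.174). Without the same 2 arrays it was 0.657 (exact permutation p = 0.373). For Arrdc4, r was 0.219 and rho 0.336 (exact permutation p = 0.562 and 0.362, adjusted p = 0.749 and 0.483), with r at 0.232 without those arrays. For Arrdc1, r was -0.09 and rho -0.08 (exact permutation p = 0.782 and 0.797, adjusted p = 0.782 and 0.797), with r at -0.02 without them.

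Arrdc2 thus passed the threshold of 0.05 and the other relations did not. Among all other tested genes, 0.114% had an r with Txnip at least as high as that of Arrdc2, and 0.91% one at least as high as that of Arrdc3. The Arrdc2 call was lost in 3 of the 12 fits that left out an array. By the exact permutation the adjusted p was 0.169 without withaferin A replicate 1 (r = 0.877), 0.247 without withaferin A replicate 3 (r = 0.831) and 0.154 without withaferin A replicate 4 (r = 0.825). Its r stayed between 0.825 and 0.939 whichever array was left out. For Arrdc3 the r fell as low as 0.478 without withaferin A replicate 4, and reached 0.856 without DMSO replicate 3 (exact permutation, adjusted p = 0.0382). Among the Arrdc genes, the highest r was 0.621 between Arrdc1 and Arrdc4, and Arrdc2 with Arrdc3 had 0.596. Summed astrocyte markers had an r of 0.700 with the Txnip deviations and 0.551 with those of Arrdc2. For summed hypothalamic markers these were 0.648 and 0.392, for choroid plexus markers -0.455 and -0.306, and for endothelial markers -0.269 and -0.452. The array median had -0.108 and -0.401. Sums of the remaining marker lists had an r from -0.210 to 0.350 with Txnip and from -0.041 to 0.166 with Arrdc2. The part of these measures in the relations was not tested.

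**Figure D3:**
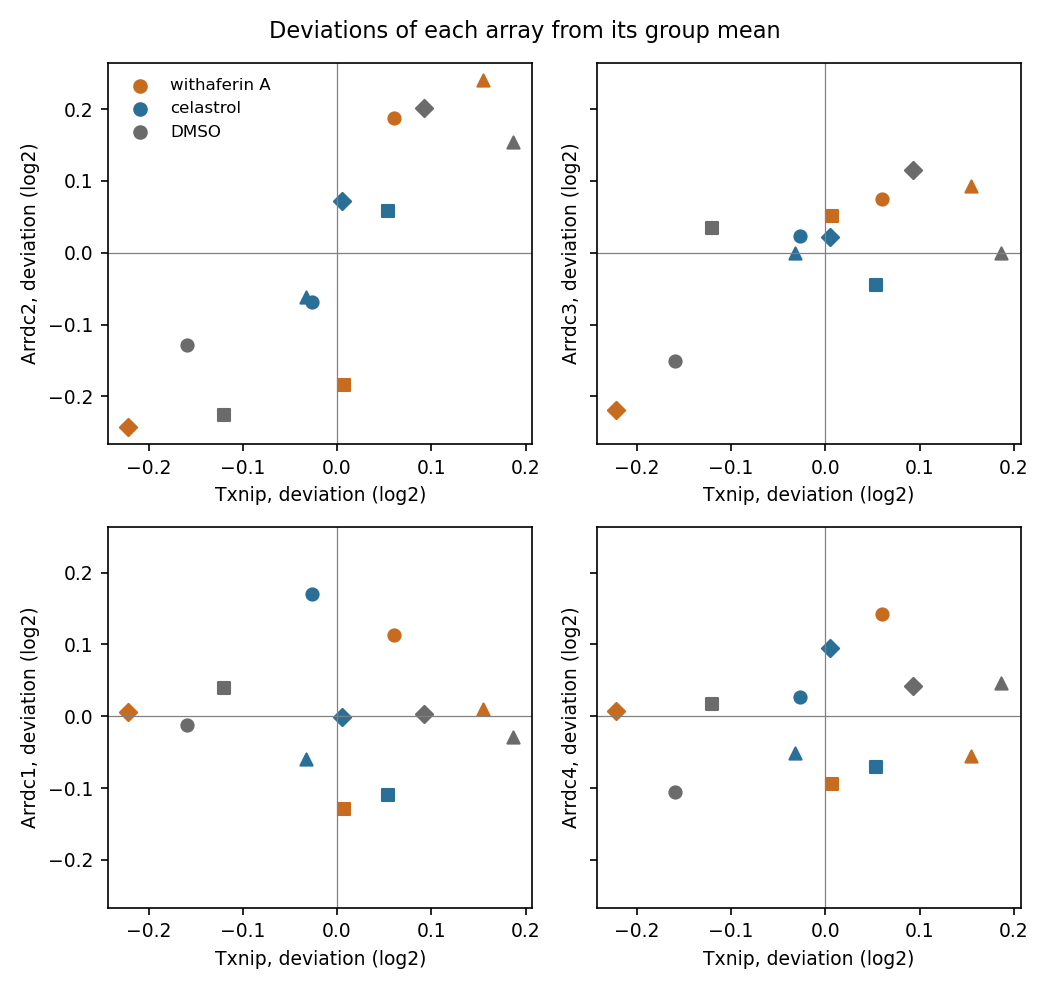
Deviation of each array from its group mean, in log2 signal, for Txnip (horizontal axes) against each Arrdc gene (vertical axes). Colours give the group and shapes the replicate number, as in the plot of signals by array. Arrdc2 follows Txnip with r = 0.865, while Arrdc1 and Arrdc4 show r of -0.09 and 0.219.

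The genes whose pattern was most like Txnip over the 12 arrays, group differences included, were Pdk4 (r = 0.941), Tcim (0.933), Ppp1r1b (0.932), Ptgs2 (0.928) and Plcd4 (0.927). On this measure Arrdc3 had 0.905, Arrdc2 0.838, Arrdc4 0.288 and Arrdc1 -0.44. Pdk4 encodes the kinase that inactivates pyruvate dehydrogenase, and Ptgs2 the inducible cyclooxygenase. Ppp1r1b encodes DARPP-32, a phosphatase inhibitor of dopamine-responsive neurons. Tcim was dim, with means of 5.70 with withaferin A and 5.61 with DMSO, both below the lower limit on signal of 5.81. It was kept only through its celastrol mean of 6.33, so its place among these genes depends on that limit. Pdk4 had 8.47, 7.89, 8.42 and 7.73 with withaferin A, 8.94, 9.08, 8.94 and 8.75 with celastrol, and 7.63, 7.72, 7.75 and 8.07 with DMSO. As with Arrdc2, withaferin A replicates 1 and 3 were the higher ones of their group. By deviations from the group means alone, the closest genes were Smim1 (0.952), Ten1 (0.940), Gpr135 (0.920), Fau (0.913) and Adgrg2 (0.909). The celastrol minus DMSO differences of these 5 ran from -0.21 to 0.17, against 0.81 for Txnip. The arrays share their normalization, and these correlations are a description.

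Genes around the family were then read from 8 lists, with limma's adjusted p over all 14953 genes. With celastrol, 0.769% of tested genes (115) passed the threshold of 0.05 against DMSO, 68 of them higher. With withaferin A against DMSO it was 0% (0 genes by limma, with 2352 at an unadjusted p below 0.05). With withaferin A against celastrol it was 0.0468% (7 genes). The median difference over all tested genes was -0.02, -0.0041 and 0.01 in these 3 comparisons. In both comparisons led by withaferin A 0 genes of the 8 lists passed limma's test, and their counts at an unadjusted p below 0.05 are given instead. Over all 14953 tested genes, limma gave such a p for 1561 with celastrol against DMSO and 2352 with withaferin A against DMSO. Between withaferin A and celastrol it was 2413. The list counts at an unadjusted p are to be read beside these and were not tested against them.

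The thioredoxin list held thioredoxin, which TXNIP binds, its reductases and the peroxiredoxins, with glutaredoxins, Nxn, Srxn1 and Map3k5. With celastrol, 0 of 16 measured genes passed limma's test against DMSO (1 at an unadjusted p below 0.05), with a median of -0.01. Txn1, thioredoxin itself, differed by -0.14 ± 0.06 (limma adjusted p = 0.457) and Nxn, nucleoredoxin, by 0.18 ± 0.08 (limma adjusted p = 0.492). With withaferin A against DMSO the median was -0.04 and 3 genes had an unadjusted p below 0.05. Prdx1, a cytosolic peroxiredoxin, differed by -0.39 ± 0.10 (limma adjusted p = 0.168) and Txnrd2, the mitochondrial thioredoxin reductase, by 0.24 ± 0.07 (limma adjusted p = 0.189). Without DMSO replicate 3, Prdx1 was -0.49 with an adjusted p of 0.0468. Between withaferin A and celastrol the median was -0.03, with 2 genes at an unadjusted p below 0.05. Prdx3 differed by -0.29 ± 0.10 (limma adjusted p = 0.199) and Txnrd2 by 0.19 ± 0.07 (limma adjusted p = 0.224).

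Of the factors that induce Txnip and their other targets, 0 of 13 passed limma's test with celastrol against DMSO (4 at an unadjusted p below 0.05), and the median was 0.0002. Klf10, a glucose-induced zinc finger factor, differed by -0.37 ± 0.09 (limma adjusted p = 0.0827). Gpd1, the cytosolic glycerol-3-phosphate dehydrogenase, differed by 0.56 ± 0.18 (limma adjusted p = 0.216). Without withaferin A replicate 1 both passed the threshold (adjusted p = 0.0487 for Klf10 and 0.0384 for Gpd1). With withaferin A against DMSO the median was 0.06, with 2 genes at an unadjusted p below 0.05. Bhlhe40, a transcriptional repressor, differed by -0.28 ± 0.11 (limma adjusted p = 0.253) and Acacb, an acetyl-CoA carboxylase, by 0.17 ± 0.07 (limma adjusted p = 0.256). Between withaferin A and celastrol the median was 0.01, with 1 gene at an unadjusted p below 0.05. There Klf10 differed by 0.28 ± 0.09 (limma adjusted p = 0.180) and Pklr, a pyruvate kinase, by 0.19 ± 0.10 (limma adjusted p = 0.361).

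Among glucose transporters and hexokinases, 1 of 15 rose with celastrol, and it was Slc2a1, which encodes GLUT1, the transporter whose endocytosis TXNIP promotes. Slc2a1 had 12.45, 11.63, 12.09 and 11.65 with withaferin A, 12.23, 12.30, 12.44 and 12.41 with celastrol, and 11.51, 11.47, 11.69 and 11.73 with DMSO. All 4 celastrol arrays lay above all DMSO arrays, while withaferin A replicates 1 and 3 were high and replicates 2 and 4 near DMSO. Celastrol minus DMSO was 0.75 ± 0.15, or 1.68-fold (limma adjusted p = 0.0384). The call was lost when any 1 of the 8 celastrol or DMSO arrays was left out, at adjusted p from 0.0681 to 0.135. In those fits the difference stayed between 0.70 and 0.79. Withaferin A minus DMSO was 0.36 ± 0.15 (limma adjusted p = 0.273), and withaferin A minus celastrol -0.39 ± 0.15 (limma adjusted p = 0.231). The median of the 15 was -0.03 for celastrol against DMSO, 0.09 for withaferin A against DMSO (4 at an unadjusted p below 0.05) and 0.08 for withaferin A against celastrol (6 at an unadjusted p below 0.05). Slc2a4, which encodes GLUT4, differed between withaferin A and DMSO by 0.22 ± 0.08 (limma adjusted p = 0.226), and Slc2a8 by 0.13 ± 0.05 (limma adjusted p = 0.263). Between withaferin A and celastrol Slc2a9 differed by 0.22 ± 0.06 (limma adjusted p = 0.168) and Slc2a8 by 0.16 ± 0.05 (limma adjusted p = 0.184). Brain endothelium is rich in GLUT1. Summed endothelial markers lay from 11.33 to 11.51 with withaferin A, from 11.32 to 11.45 with celastrol and from 11.45 to 11.52 with DMSO on the log2 scale. Of 7 endothelial markers, 1 fell with celastrol against DMSO and the list median was -0.01. It was Tek, an endothelial receptor kinase, at -0.55 ± 0.11 (limma adjusted p = 0.0450). Its call was lost without any 1 of the 8 celastrol or DMSO arrays or without withaferin A replicate 3, at adjusted p up to 0.142. The part of endothelial cells in the Slc2a1 difference was not tested.

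The ligases and sorting partners through which alpha-arrestins act showed 0 of 13 calls by limma with celastrol against DMSO (1 at an unadjusted p below 0.05) and a median of 0.01. All 13 were between -0.11 and 0.17, with Hecw2 at 0.17 ± 0.06 (limma adjusted p = 0.326) and Ndfip2 at -0.11 ± 0.06 (limma adjusted p = 0.534). With withaferin A against DMSO the median was -0.07, with 3 genes at an unadjusted p below 0.05. Tsg101, the partner of ARRDC1 in budding, differed by -0.22 ± 0.08 (limma adjusted p = 0.224) and Ndfip1, an adaptor of NEDD4 ligases, by -0.14 ± 0.05 (limma adjusted p = 0.238). Between withaferin A and celastrol the median was -0.09, with 4 genes at an unadjusted p below 0.05. Tsg101 differed by -0.23 ± 0.08 (limma adjusted p = 0.202) and the ligase Nedd4l by -0.16 ± 0.06 (limma adjusted p = 0.234).

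Of 8 measured cargo genes of alpha-arrestins, Slc2a1 was the only call with celastrol, and the median was 0.01. Their median was 0.05 for withaferin A against DMSO (2 at an unadjusted p below 0.05) and 0.003 for withaferin A against celastrol (4 at an unadjusted p below 0.05). Notch1 differed by 0.29 ± 0.07 between withaferin A and celastrol (limma adjusted p = 0.113), and passed without withaferin A replicate 1 (adjusted p = 0.0305). Other arrestin-fold genes, the beta-arrestins, visual arrestin and the retromer subunits Vps26a and Vps26b, gave 0 of 5 calls by limma with celastrol (1 at an unadjusted p below 0.05), with a median of 0.02. Arrb2, a beta-arrestin, differed by -0.11 ± 0.04 with celastrol (limma adjusted p = 0.337) and by -0.13 ± 0.04 with withaferin A (limma adjusted p = 0.215), each against DMSO. Sag, visual arrestin, differed by -0.10 ± 0.10 with celastrol (limma adjusted p = 0.821). Its signal lay near the lower limit of 5.81, with means of 5.87 with withaferin A, 5.74 with celastrol and 5.83 with DMSO. The medians of these 5 genes were -0.08 for withaferin A against DMSO and -0.05 for withaferin A against celastrol, with 1 gene at an unadjusted p below 0.05 in each. Vps26a differed by -0.19 ± 0.09 between withaferin A and DMSO (limma adjusted p = 0.331) and by -0.23 ± 0.09 between withaferin A and celastrol (limma adjusted p = 0.257), and Vps26b by -0.10 ± 0.06 in the last comparison (limma adjusted p = 0.443).

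Glucocorticoids are known inducers of several genes that also respond to fasting. Of 21 measured genes known to respond to them, 10 rose with celastrol and 0 fell, with a median of 0.61. This list was taken up with its response in these arrays already known, so the count is no independent evidence. Zbtb16 rose by 1.84 ± 0.30, or 3.58-fold (limma adjusted p = 0.0184). Pdk4 rose by 1.13 ± 0.15 (limma adjusted p = 0.0122), Angptl4, an inhibitor of lipoprotein lipase, by 0.63 ± 0.10 and Nfkbia, the inhibitor of NF-kB, by 0.73 ± 0.12 (limma adjusted p = 0.0158 for both). Fkbp5, a co-chaperone of the glucocorticoid receptor, rose by 1.21 ± 0.23 (limma adjusted p = 0.0369) and the kinase Sgk1 by 0.86 ± 0.17 (limma adjusted p = 0.0381). The count depended on single arrays. It was 16 without withaferin A replicate 1. It was 1 when DMSO replicate 1, DMSO replicate 2, celastrol replicate 2 or celastrol replicate 3 was left out, 4 for DMSO replicate 3, and 5 for DMSO replicate 4, celastrol replicate 1 or celastrol replicate 4. Calls over all 14953 tested genes moved as well, from 115 in the main fit to 203 without withaferin A replicate 1. They numbered 6 to 77 when 1 celastrol or DMSO array was left out, so the change in count is not particular to this list. The median of the 21 genes stayed between 0.56 and 0.69 in all 12 fits without 1 array. Fkbp5 lost its call without any 1 of the 8 celastrol or DMSO arrays, at adjusted p up to 0.118, and Sgk1 without any of them but DMSO replicate 4, at up to 0.135. Zbtb16 lost it without DMSO replicates 1, 2 or 4 or celastrol replicates 2 or 3 (up to 0.0690), and Nfkbia without DMSO replicates 1 or 2 or celastrol replicates 2 or 3 (up to 0.0681). Angptl4 lost it without DMSO replicate 1 or celastrol replicates 2 or 3 (up to 0.0596), and Pdk4 without DMSO replicate 2 (0.0516).

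With withaferin A the median of the same 21 genes was 0.24 against DMSO (8 at an unadjusted p below 0.05), with Nfkbia at 0.39 ± 0.12 (limma adjusted p = 0.185) and Klf9 at 0.24 ± 0.07 (limma adjusted p = 0.190). Between withaferin A and celastrol the median was -0.41 (16 at an unadjusted p below 0.05), with Pdk4 at -0.80 ± 0.15 (limma adjusted p = 0.0722) and Errfi1, an inhibitor of EGF receptor signalling, at -0.57 ± 0.11 (limma adjusted p = 0.0789). Without withaferin A replicate 1, 8 of the 21 passed limma's test in that comparison, Pdk4 (adjusted p = 0.0231) and Errfi1 (adjusted p = 0.0277) among them. In the same fit 56 of all 14953 tested genes passed. In that comparison the withaferin A arrays were spread widely for Zbtb16, which had 11.01, 9.28, 10.15 and 9.13 with withaferin A, 10.76, 10.70, 10.85 and 11.17 with celastrol, and 8.93, 8.97, 9.23 and 8.99 with DMSO.

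Between animals of a group, Arrdc2 had the highest median correlation with these glucocorticoid-responsive genes among the 5 alpha-arrestins. Of the 21, 16 had an r above 0.5 with the Arrdc2 deviations, with a median r of 0.660, where 6.01% of all other genes lay above 0.5. Txnip had 9 of 21 and a median of 0.474, against 7.08% of other genes. Arrdc3 had 6 of 21 and a median of 0.406, against 5.64% of other genes, and Arrdc4 had 5 of 21 and a median of 0.324, against 7.28%. Arrdc1 had 1 of 21 above 0.5, against 6.83% of other genes, so at that cut its share was not above background. Its median was 0.282, against 0.045 over other genes, and 19 of 21 were positive, against 55.6%. For Txnip, Arrdc2, Arrdc3 and Arrdc4 the median over other genes lay between -0.038 and 0.0014. The highest r with Arrdc2 were those of Nfkbia (0.904) and Sgk1 (0.867). Nfkbia had 9.001, 8.60, 9.11 and 8.66 with withaferin A, 9.17, 9.23, 9.16 and 9.16 with celastrol, and 8.34, 8.28, 8.44 and 8.75 with DMSO. With withaferin A, replicates 1 and 3 were again the higher ones. These correlations were looked at after the values were seen and are a description over 12 arrays.

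Txnip is also repressed by insulin signalling and bound by FOXO1 in other tissues. With celastrol, 0 of 20 measured genes of the FOXO and insulin list passed limma's test against DMSO (8 at an unadjusted p below 0.05), and the median was -0.002. Foxo1 differed by 0.27 ± 0.06 (limma adjusted p = 0.0660) and Foxo6 by -0.41 ± 0.11 (limma adjusted p = 0.115). Foxo1 passed without withaferin A replicate 1 (adjusted p = 0.0487) or replicate 4 (adjusted p = 0.0299), and Klf15 without replicate 1 (adjusted p = 0.0384). With withaferin A against DMSO the median was -0.01 (4 at an unadjusted p below 0.05), with Sesn3 at -0.16 ± 0.05 (limma adjusted p = 0.199) and Klf15 at 0.26 ± 0.09 (limma adjusted p = 0.202). Between withaferin A and celastrol it was -0.03 (5 at an unadjusted p below 0.05), with Sesn1 at -0.30 ± 0.08 (limma adjusted p = 0.129) and Foxo6 at 0.38 ± 0.11 (limma adjusted p = 0.160).

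**Figure D4:**
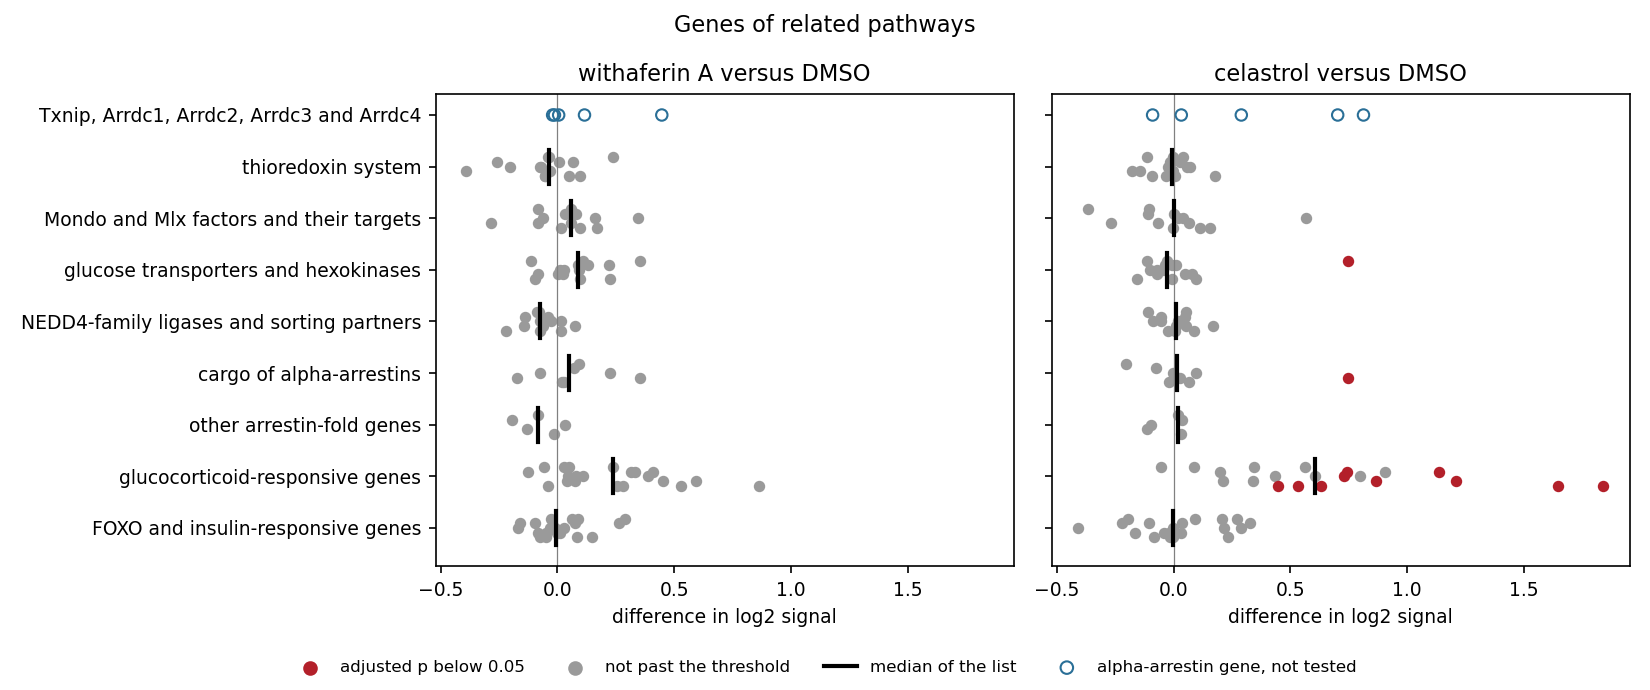
Difference in log2 signal (horizontal axes) of each measured gene of 8 lists (rows), for withaferin A against DMSO on the left and celastrol against DMSO on the right. Open circles are the alpha-arrestin genes, which were not tested, filled points are list genes and black bars are list medians. The glucocorticoid-responsive genes have a median of 0.24 with withaferin A and 0.61 with celastrol, while the medians of the other lists lie between -0.08 and 0.09.

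Arrays were alike in their overall signal, with medians from 6.89 to 6.98 and correlations between arrays from 0.981 to 0.994. All 14 measured hypothalamic markers were above the lower limit on signal. Their summed log2 signal ran from 14.04 to 14.22 with withaferin A, from 14.01 to 14.28 with celastrol and from 14.24 to 14.44 with DMSO. With celastrol against DMSO, 1 of the 14 fell, Oxt, the oxytocin precursor, at -0.40 ± 0.07 (limma adjusted p = 0.0179), and the list median was -0.16. The Oxt call was lost without DMSO replicates 1, 2 or 4 or celastrol replicates 2 or 3 (adjusted p up to 0.0681). Summed oligodendrocyte markers lay from 13.50 to 13.63 with withaferin A, from 13.55 to 13.61 with celastrol and from 13.59 to 13.71 with DMSO. With celastrol against DMSO 6 of these 7 markers had an unadjusted limma p below 0.05, and the list median was -0.20. The markers did not all go the same way, since 1 of the 7 was higher with celastrol, by 0.31. Opalin, a myelin protein gene, fell by 1.003 ± 0.18 on the log2 scale (limma adjusted p = 0.0229). The Opalin call was lost without DMSO replicates 1, 2 or 4 or celastrol replicates 2, 3 or 4 (adjusted p up to 0.0811). Summed astrocyte markers lay from 13.48 to 13.54 with withaferin A, from 13.49 to 13.53 with celastrol and from 13.54 to 13.58 with DMSO. Thalamus and pituitary markers were uneven between arrays. Summed thalamus markers lay from 11.87 to 12.70 with withaferin A, from 12.04 to 13.02 with celastrol and from 11.69 to 12.72 with DMSO. Summed pituitary markers lay from 9.42 to 10.08 with withaferin A, from 9.97 to 12.23 with celastrol and from 9.16 to 10.04 with DMSO. For pituitary markers the highest array was celastrol replicate 2, where Gh, growth hormone, had 10.96, while the other 11 arrays had 6.30 to 7.98. The shift was not confined to that array. With celastrol against DMSO all 5 tested pituitary markers were higher, with a median of 1.24. By limma 3 of them had an unadjusted p below 0.05 and 0 were called. Of 8 thalamus markers 7 were higher with celastrol than with DMSO, with a median of 0.20 and 0 at an unadjusted limma p below 0.05. The part of these markers in the alpha-arrestin differences was not tested. Without celastrol replicate 2 the celastrol minus DMSO difference was 0.79 for Txnip, 0.68 for Arrdc2 and 0.30 for Arrdc3. Leaving out any 1 array kept it between 0.76 and 0.87 for Txnip, between 0.63 and 0.77 for Arrdc2 and between 0.24 and 0.33 for Arrdc3.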

How the data were processed

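RNA of 12 mouse hypothalami was measured on Affymetrix arrays with 1 colour. The deposited values are log2 signals of 35556 probe sets that the authors made with RMA, per the submitters' processing notes, which brings arrays to a common scale and compresses low signals. The RMA version and genome build are not given in the sources used here. Array signals hold no counts, and precision is limited by the number of arrays.

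Probe sets were named by the platform's probe table. Of the 21789 with exactly 1 symbol, standing for 19938 genes, the probe set with the highest mean was kept per gene. Genes below the 25th percentile of means, a log2 signal of 5.81, were left out, and 14953 were tested. The 3 group means were estimated together by limma 3.58.1 (R 4.3.3), and adjusted p-values are Benjamini-Hochberg over those genes, with a threshold of 0.05. Errors are SE from this fit, and p-values measure the spread between labelled biological replicates. Correlations within groups used all 13824 reorderings. The fit and the permutation test were tested on simulated data. The labels do not state whether arrays with the same replicate number were matched, and the main fit did not pair them. Of 12 pairs with the same number and of different groups, 2 had a correlation of deviations over 0.1. Their r ran from -0.28 to 0.12, against -0.20 to 0.23 for differently numbered arrays. Such correlations over all genes cannot show whether arrays were matched.

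The members, the 8 gene lists and the marker lists were chosen with earlier results of these data known. Genes named were the members, the 5 most like Txnip by each of the 2 measures of likeness, and from each list up to 6 past the threshold or otherwise the 2 with the smallest p. Alternatives were the filter, renewed quantile normalization, centring on the array median, array weights, a prior that is robust and follows the intensity, the 8 arrays of a comparison alone, a replicate block and leaving out each array. Promoter sequences are from the RefSeq table (GRCm38.p6), in which all 5 genes were found. Arrdc3 has 3 starts there, and motif statements cover all of them. Listed genes without a value, such as Agrp, were not analysed here. Plots were drawn with matplotlib 3.10.9.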

Additional observations from a re-analysis of the deposited data

Results flagged for a closer look

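In groups of 4 arrays, an array was picked out when its gap to the nearest other array, divided by the range of the group, exceeded Dixon's 95% critical value. Of 153 groups checked over 51 genes, 5 were picked out, where chance picks out about 1 in 20. Arrdc3 on withaferin A replicate 4 had a log2 signal of 9.22, below the next array at 9.49. Txn1, thioredoxin, on the same array had 13.7, the highest of its group, with the next at 13.5. Fau, a ribosomal protein gene among those most like Txnip within groups, had 11.6 on the same array, with the next at 11.8. Vps26a on celastrol replicate 2 had 8.66, with the next at 8.67. Plcd4 on celastrol replicate 4 had 8.67, with the next at 8.80.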

How the results depend on the processing

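The differences of the 5 alpha-arrestin genes moved by less than the spread between replicates in 240 of 240 recalculations, and those of Txnip, Arrdc2 and Arrdc3 between celastrol and DMSO kept their sign in 16 of 16 each. Values near 0 changed sign for Arrdc4 between celastrol and DMSO (-0.0019 without DMSO replicate 1) and, between withaferin A and DMSO, for Arrdc1, Arrdc3 and Arrdc4. Another probe set could not be tried, since each gene has 1. The within-group correlation of Txnip with Arrdc2 missed the threshold after renewed quantile normalization (r = 0.8286, adjusted p = 0.0527). It ran from 0.825 to 0.939 with 1 array left out, and that with Arrdc3 from 0.478 to 0.856. Numbers of called genes moved most. For celastrol against DMSO (115 called, 68 higher), there were 60 with no filter (43 higher), 195 with an intensity trend (99 higher), 219 with array weights and 182 with the 8 arrays alone. With 1 array left out there were 6 to 203. For withaferin A against DMSO (0 called), there were 8 with the trend, 21 with weights and 0 to 167 with 1 array left out, the 167 without DMSO replicate 3. For withaferin A against celastrol (7 called), there were 11 with no filter, 13 above the 50th percentile, 12 after centring on the median (1 higher of the 12), 29 with the trend, 19 with weights, 0 with the 8 arrays alone and 0 to 56 with 1 array left out. The replicate block gave 54 calls for celastrol against DMSO, 40 higher, and Slc2a1, Fkbp5 and Sgk1 missed the threshold under it (adjusted p = 0.0675, 0.0667 and 0.0590). It also gave 5 of the glucocorticoid-responsive genes in place of 10, and r = 0.924 for Txnip with Arrdc2 (exact permutation, adjusted p = 0.0289). The cause of these shifts was not tested. Among the other named genes, 76 recalculations lost a call and 38 gained one. Signal near background limits the dim list genes. The 5 alpha-arrestin genes lie above the filter, from a mean of 7.11 for Arrdc4 (percentile 44.2 of gene means) to 9.53 for Arrdc3 (percentile 83.6). Since RMA compresses low signals, a change of Arrdc4 could be understated.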
